A study of Mus musculus with 17 samples.

Results

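Spinal cords with targeted EAE differed from mouse to mouse in the signals of 5 macrophage genes, and the following describes how the rest of the transcriptome moved with that difference among mice of the same treatment. The data were the 11 EAE arrays of 17 arrays in all, 5 from mice given the isotype control antibody and 6 from mice given the humanized anti-RGMa antibody, with 1 array per mouse. These arrays were taken by their labels. The inflammation score that orders them was chosen by measured values and selected on 5 genes, as the mean log2 signal of Cd68, Cd14, Lyz2, Ms4a7 and Ccr2 on each array. The mean of the treatment group was then subtracted from the score and from every gene, so that no mean level is compared between the antibodies. All mice were female C57BL/6 and, by their labels, 8 weeks old. The paper's schedule of immunization, cytokine injection and sampling makes the EAE mice older than that when sampled. EAE mice were immunized with MOG peptide in complete Freund's adjuvant, and TNF-α and IFN-γ were later injected into the thoracic cord through a laminectomy, with pertussis toxin given as well. Antibodies (10 mg/kg, the isotype control being palivizumab) were started at 9 DPI (days post cytokine injection), and a 4.5 mm piece of cord around the injection site was taken at 14 DPI. The 6 naïve mice received neither EAE nor antibody and served only as a reference level. The cytokine injection and laminectomy were shared by both EAE groups, so that every array of the gradient also carried the injury of the procedure.

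Macrophages of an EAE lesion come from blood monocytes and from resident microglia. Entering monocytes carry the chemokine receptor CCR2, and once in the tissue they turn on lysosomal and phagocytic genes, present antigen to T cells and clear myelin. CD68 is a lysosomal glycoprotein of phagocytes, CD14 the lipopolysaccharide co-receptor, lysozyme 2 (Lyz2) a secreted enzyme of myeloid cells and MS4A7 a membrane protein of macrophages. In a whole piece of cord, fewer cells of a type and less RNA per cell cannot be told apart.

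The score lay far above naïve cord in every EAE mouse and spread over about 1 log2 unit within each treatment group. In the isotype control group it was 12.33, 11.62, 11.38, 11.36 and 12.12 in replicates 1 to 5. The anti-RGMa group had a lowest score of 11.14, a median of 11.27 and a highest of 12.18, the last belonging to replicate 6. Naïve cords ranged from 6.05 to 7.50. After subtraction of the group mean, 3 arrays stood at the top, anti-RGMa replicate 6 (0.79), isotype control replicate 1 (0.57) and isotype control replicate 5 (0.36). The other 8 arrays lay between -0.40 and -0.04. The gap between both sets was 0.39, and the 8 lower arrays covered 0.37 of a total range of 1.19, so that every slope below rests largely on the 3 upper arrays.

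The 5 score genes did not rank the lower arrays alike. Cd68 had log2 signals of 12.83, 11.44, 11.30, 11.38 and 12.29 in isotype control replicates 1 to 5 and of 11.17 to 12.86 in the anti-RGMa group (median 11.51), against 7.71 to 8.06 in naïve cord. Both groups had their highest Cd68 signal on an array of the upper 3. Ccr2, the monocyte receptor, ran from 9.09 to 10.47 in the anti-RGMa group, with replicates 4 (10.23) and 5 (10.00) well above replicates 1 to 3 (9.09 to 9.32). Ms4a7 had its lowest signals on the same replicates 4 (9.55) and 5 (9.54). Lyz2 hardly varied, between 14.17 and 14.74 over all EAE arrays. These genes define the score, so their own relation to it is given with no test.

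**Figure D1:**
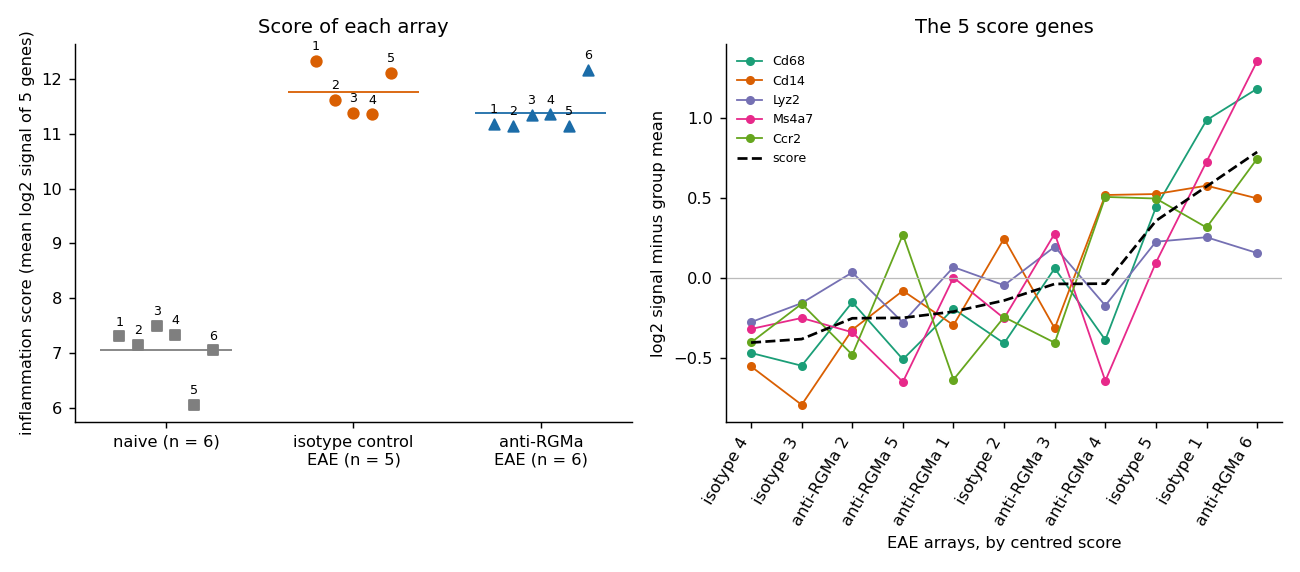
Left, the inflammation score (mean log2 signal of 5 genes) of each array with its replicate number, by group, and a line at the group mean; right, log2 signal of the 5 score genes minus the group mean over the 11 EAE arrays ordered by centred score, with the score dashed. The 3 arrays at the right end, isotype control replicates 5 and 1 and anti-RGMa replicate 6, stand at 0.36, 0.57 and 0.79, and the other 8 between -0.40 and -0.04.

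Many expressed genes moved along this axis, both up and down. Genes whose log2 signal averaged 8 or more over the EAE arrays were tested, 10095 without the score genes (Ppard lay just inside this limit at 8.000 and Man1b1 just outside at 7.999), and the slope of each on the centred score was fitted with limma. A slope of 1 means that the log2 signal rose by 1, a 2-fold change, as the mean of the score genes did. At an adjusted p under 0.05, 1717 genes (17.0%) rose and 1688 (16.7%) fell with the score, with median slopes of 0.54 and -0.56, and 4435 genes had an unadjusted p under 0.05. The median slope over all tested genes was 0.00. Each count of a gene list below is to be read beside the shares of 17.0% and 16.7%. Each array was scaled to the same trimmed mean, so rises and falls are relative to the other signals of the array. Their balance is thus partly set by the scaling. With arrays centred on their median, 1839 genes rose and 1266 fell. Principal component 1 of the centred signals held 47.6% of their variance. Its array scores followed the inflammation score with Pearson's r = 0.964 (exact permutation within groups, two-sided, p = 0.000475, adjusted p = 0.00427 over 9 array measures) and Spearman's rho = 0.918 (exact p = 0.000845). Without the 2 arrays farthest from the median, r was 0.895. Among the 8 lower arrays, a choice made after seeing the data, r was 0.636 and did not pass (exact permutation within groups, two-sided, p = 0.101).

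The slope was also fitted in each treatment group alone, and these share no array. Within the isotype control arrays alone, 384 genes rose, and 378 of these (98.4%) had a slope above 0 within the anti-RGMa arrays, against 48.9% of all tested genes, while 285 also passed there. Of 221 that fell, 196 (88.7%) had a slope below 0 there and 150 passed. Within the anti-RGMa arrays alone, 911 rose and 1239 fell. There the centred score was 0.79 in replicate 6 and -0.25 to -0.04 in the others, so the anti-RGMa slopes rest mostly on that mouse. A difference of slope between the treatment groups was not found for any gene at an adjusted p under 0.05 (0 genes by limma, lowest adjusted p = 0.413, 596 at an unadjusted p under 0.05). Without anti-RGMa replicate 6, 726 genes rose and 660 fell, and without it and isotype control replicate 1, 202 and 107. Among the 8 lower arrays alone, a choice made after seeing the data, limma called 0 genes (508 at an unadjusted p under 0.05). There 91.4% of the rising genes had a slope above 0, against 59.9% of all tested genes, and 69.9% of the falling genes one below 0, though these genes had been called on arrays that include these 8.

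Array quality and neighbouring tissue were set beside the score. The median signal of the array, the ratios of 3' to 5' control probe sets and the means of skeletal muscle, cartilage and bone, erythroid, Schwann cell and dorsal root ganglion genes had r between -0.349 and 0.459 with the score, and none passed (exact p of 0.203 or more for r, 0.187 or more for rho). Skeletal muscle genes stood at 12.75 in isotype control replicate 4 and at 8.95 and 9.00 in replicates 3 and 5, against 5.52 to 7.33 on the other EAE arrays. Dorsal root ganglion genes stood at 9.10 in anti-RGMa replicate 1 and 7.57 in replicate 6, against 4.82 to 5.46 on the others. With the muscle mean as a covariate 1671 genes rose and 1984 fell, and with the ganglion mean 1611 and 1601. The Gapdh 3' to 5' ratio, which had the r of 0.459, gave 1481 and 1687 as a covariate, and the array median 1837 and 2037.

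Genes of the phagocyte and its oxidative burst were among the closest followers of the score. The 12 genes with the highest correlation were Cd84, Hvcn1, Cyba, Mfsd1, Mpeg1, Tnfaip8l2, P2rx4, Tmem106a, Wfdc17, M6pr, Unc93b1 and Arhgap25, with r of 0.984 to 0.993 over 11 arrays (exact p of 1.16e-05, the smallest these permutations give, to 0.000359) and rho of 0.900 to 1 (exact p up to 0.00146). Without the 2 farthest arrays r was 0.951 to 0.996. Among the 8 lower arrays it was 0.762 to 0.990. The genes were picked by their r over the 11 arrays, which include these 8. Their r, rho and exact p therefore describe them and test nothing, the p being unadjusted for the choice among all tested genes. Several have known places in phagocytes. Cyba encodes a membrane subunit of the NADPH oxidase, Hvcn1 the voltage-gated proton channel that sustains it, Mpeg1 the pore-forming perforin-2, Unc93b1 the chaperone that brings Toll-like receptors to endosomes, and M6pr a receptor that sorts enzymes to lysosomes.

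Cyba had log2 signals of 13.49, 12.74, 12.37, 12.27 and 13.44 in isotype control replicates 1 to 5 and of 12.31 to 13.63 in the anti-RGMa group (median 12.54), against 8.15 to 9.05 in naïve cord. Its order of arrays was nearly that of the score, with a slope of 1.25 (SE 0.08, limma adjusted p = 9.2e-06) and r = 0.983 among the 8 lower arrays. Cd84, a receptor of the SLAM family on leukocytes, stood at 11.67, 10.60, 10.36, 10.16 and 11.51 in the isotype control group and from 10.14 to 11.68 (median 10.35) in the anti-RGMa group, against 6.47 to 7.09 in naïve cord (slope 1.5, SE 0.09, limma adjusted p = 5.98e-06). Wfdc17, which encodes a small secreted protein of activated myeloid cells, had one of the steepest slopes, 2.08 (SE 0.12, limma adjusted p = 5.98e-06). It stood at 12.69, 11.17, 10.42, 10.51 and 12.03 in the isotype control group and at 10.03 to 12.21 in the anti-RGMa group (median 10.47), where naïve cord had 5.75 to 6.96. In each of these genes the 3 upper arrays lay above the other 8.

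**Figure D2:**
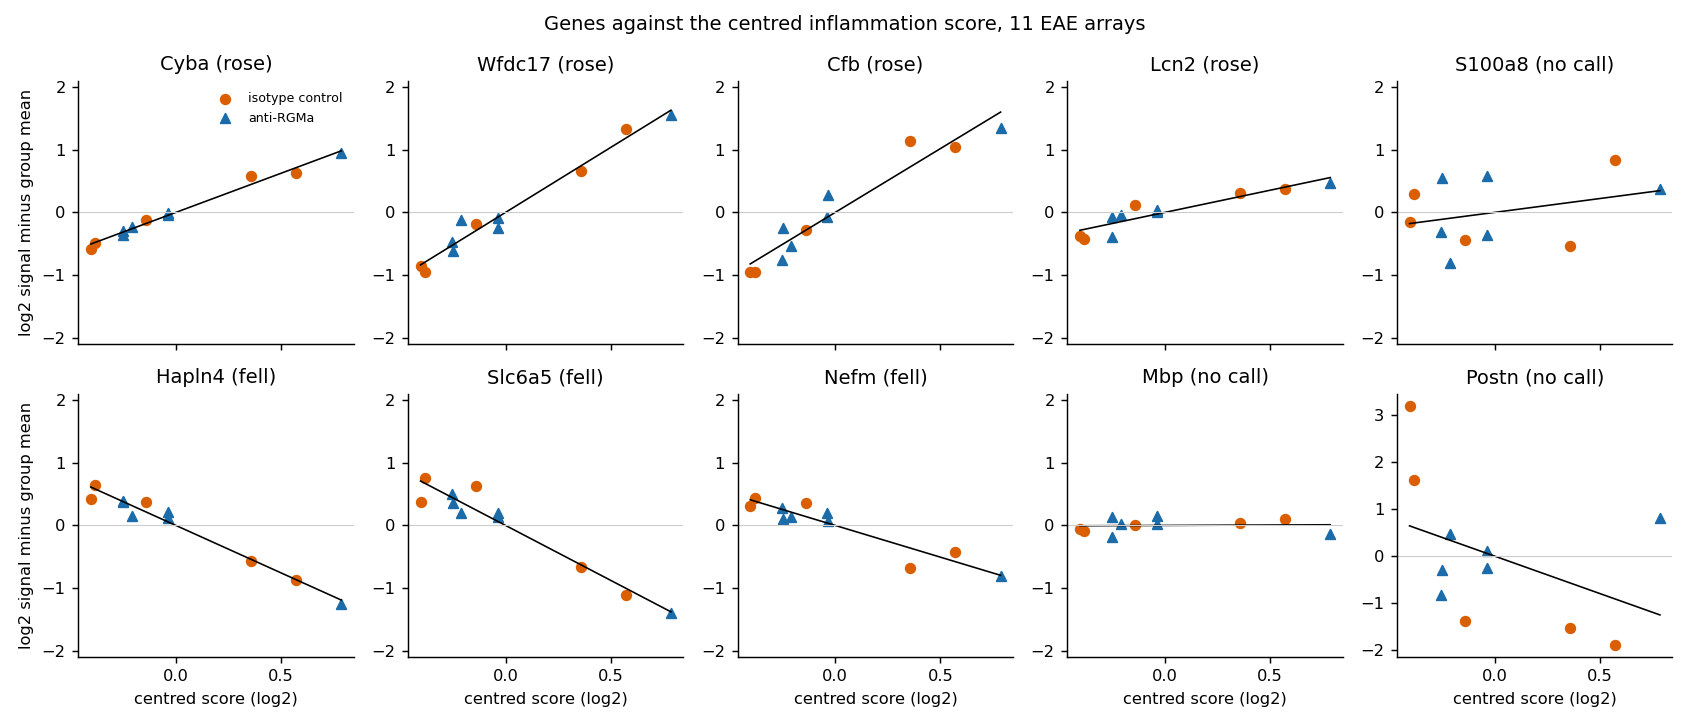
Log2 signal minus the group mean against the centred inflammation score for 10 genes over 11 EAE arrays, isotype control as circles and anti-RGMa as triangles, with the fitted slope; all panels share a vertical range except Postn. Cyba, Wfdc17, Cfb and Lcn2 rise with slopes of 1.25, 2.08, 2.04 and 0.71, Hapln4, Slc6a5 and Nefm fall with -1.52, -1.76 and -1.02, and S100a8, Mbp and Postn made no call.

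Many macrophage genes are known to be driven by PU.1, an ETS factor that binds purine-rich DNA. Its gene Spi1, chosen after its values were seen, rose with a slope of 0.98 (SE 0.12, limma adjusted p = 0.000158). The motif GAGGAA, a core of such sites, was searched on either strand (TTCCTC on the other) in the 250 bases before each gene's start in RefSeq (GRCm38.p6). It was found for 26 of 78 windows (33.3%) among the 100 genes of highest r, 15 of 85 (17.6%) among the 100 of lowest r and 1835 of 8182 (22.4%) among tested genes with a window, and in 23.1% of all 27025. Of the score genes with a window, only Cd68 held it. Of the 12 genes named above, 9 had a window and 2 held it, Wfdc17 and Arhgap25. The shares of the score genes and of these 12 genes, both from few windows, were near the 22.4% of tested genes. Neither set thus stood out by the motif. Of both sets, only the windows that hold the motif are shown, and capitals mark it. They were picked for the motif and do not link it to the order of the arrays. A match describes letters, not a bound site.
Cd68 (chr11:69666171-69666420, minus strand): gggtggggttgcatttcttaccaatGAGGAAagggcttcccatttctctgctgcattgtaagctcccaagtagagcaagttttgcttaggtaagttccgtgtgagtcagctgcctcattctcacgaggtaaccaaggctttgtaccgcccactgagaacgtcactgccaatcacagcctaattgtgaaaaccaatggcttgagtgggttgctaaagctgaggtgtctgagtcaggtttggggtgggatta
Wfdc17 (chr11:83703806-83704055, plus strand): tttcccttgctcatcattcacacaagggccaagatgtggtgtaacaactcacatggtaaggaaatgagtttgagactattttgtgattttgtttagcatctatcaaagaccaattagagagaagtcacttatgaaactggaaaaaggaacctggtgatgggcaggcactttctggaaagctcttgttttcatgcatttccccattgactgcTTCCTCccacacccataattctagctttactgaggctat
Arhgap25 (chr6:87496328-87496577, minus strand): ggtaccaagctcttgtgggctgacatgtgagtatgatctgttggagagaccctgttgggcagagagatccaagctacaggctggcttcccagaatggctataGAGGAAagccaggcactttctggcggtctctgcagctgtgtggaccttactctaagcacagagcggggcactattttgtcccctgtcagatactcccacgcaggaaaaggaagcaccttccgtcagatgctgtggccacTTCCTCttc
The Cd68 window holds 1 match, whose first base lies 225 bases before the start. That of Wfdc17 lies 39 bases before the start, and the Arhgap25 window holds 2 matches, at 148 and 9 bases.

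Lists of phagocyte function rose in most of their members. Of 17 further macrophage and monocyte genes tested, 16 rose and 0 fell, with a median slope of 0.94. Cybb, the catalytic subunit of the NADPH oxidase, had a slope of 1.53 (SE 0.11, limma adjusted p = 1.17e-05), Ms4a6d, a relative of Ms4a7, had 1.68 and Lgals3 (galectin-3) had 1.18. The mannose receptor Mrc1, chosen after its values were seen, was the exception (slope 0.38, SE 0.38, limma adjusted p = 0.475). Itgam and Adgre1, surface genes by which myeloid cells and macrophages are identified, rose with 0.89 and 1.02. All 5 genes of the phagocyte NADPH oxidase rose (median slope 1.01), among them the cytosolic subunit Ncf1 (1.01). All 5 of the Fcγ receptor list rose as well (median 1.20), with the inhibitory receptor Fcgr2b at 1.20, the signalling chain Fcer1g at 1.22 and Fcgr3 at 0.96.

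Complement and lysosome genes rose alongside. Of 8 complement genes tested 7 rose, and factor B (Cfb), the protease zymogen of the alternative pathway, had a slope of 2.04 (SE 0.19, limma adjusted p = 3.46e-05). Cfb stood at 11.51, 10.19, 9.51, 9.51 and 11.60 in isotype control replicates 1 to 5 and at 9.55 to 11.66 in the anti-RGMa group (median 10.15), against 2.96 to 6.57 in naïve cord. The upper 3 arrays again lay above the others. The receptor gene C3ar1 rose with 1.43 and C1qa, of the first component, with 0.48. Of 17 lysosomal genes 14 rose (median slope 0.53), led by the protease gene Ctsh (1.14) and the mannosidase gene Man2b1 (0.97).

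Sensors of damage and infection rose too. Of 9 Toll-like receptor genes 8 rose, with Tlr13 at 1.25, Tlr2 at 1.12 and Tlr7 at 1.10. Of 7 inflammasome and necroptosis genes 5 rose, among them the adaptor Pycard (0.85) and the pore-forming Gsdmd (0.92). The cytokine Il1b, which this pathway matures, had a slope of 0.35 (SE 0.50, limma adjusted p = 0.629) and made no call. Genes of lipid and iron handling, work that falls to phagocytes when myelin and red cells are taken up, moved in part. Of 6 lipid uptake and efflux genes 3 rose and 0 fell. The lipid droplet coat gene Plin2 rose with 1.13, the cholesterol exporters Abca1 and Abcg1 with 0.87 and 0.74, and Apoe did not pass (0.26, limma adjusted p = 0.218). Of 6 iron and heme genes 3 rose and 1 fell. Heme oxygenase (Hmox1) rose with 1.51 (SE 0.19, limma adjusted p = 0.000186), from 9.32 to 10.88 across the isotype control group and 9.34 to 11.03 across the anti-RGMa group, where naïve cord had 5.97 to 6.97. The transporter Slc11a1 rose with 1.01. Ceruloplasmin (Cp), a copper-bearing ferroxidase, rose with 0.68 and the transferrin receptor gene Tfrc fell by 0.43, the latter chosen after its values were seen. Without anti-RGMa replicate 6 the calls of Abca1 (limma adjusted p = 0.0661), Abcg1 (0.0659), Cp (0.092) and Tfrc (0.172) were lost.

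**Figure D3:**
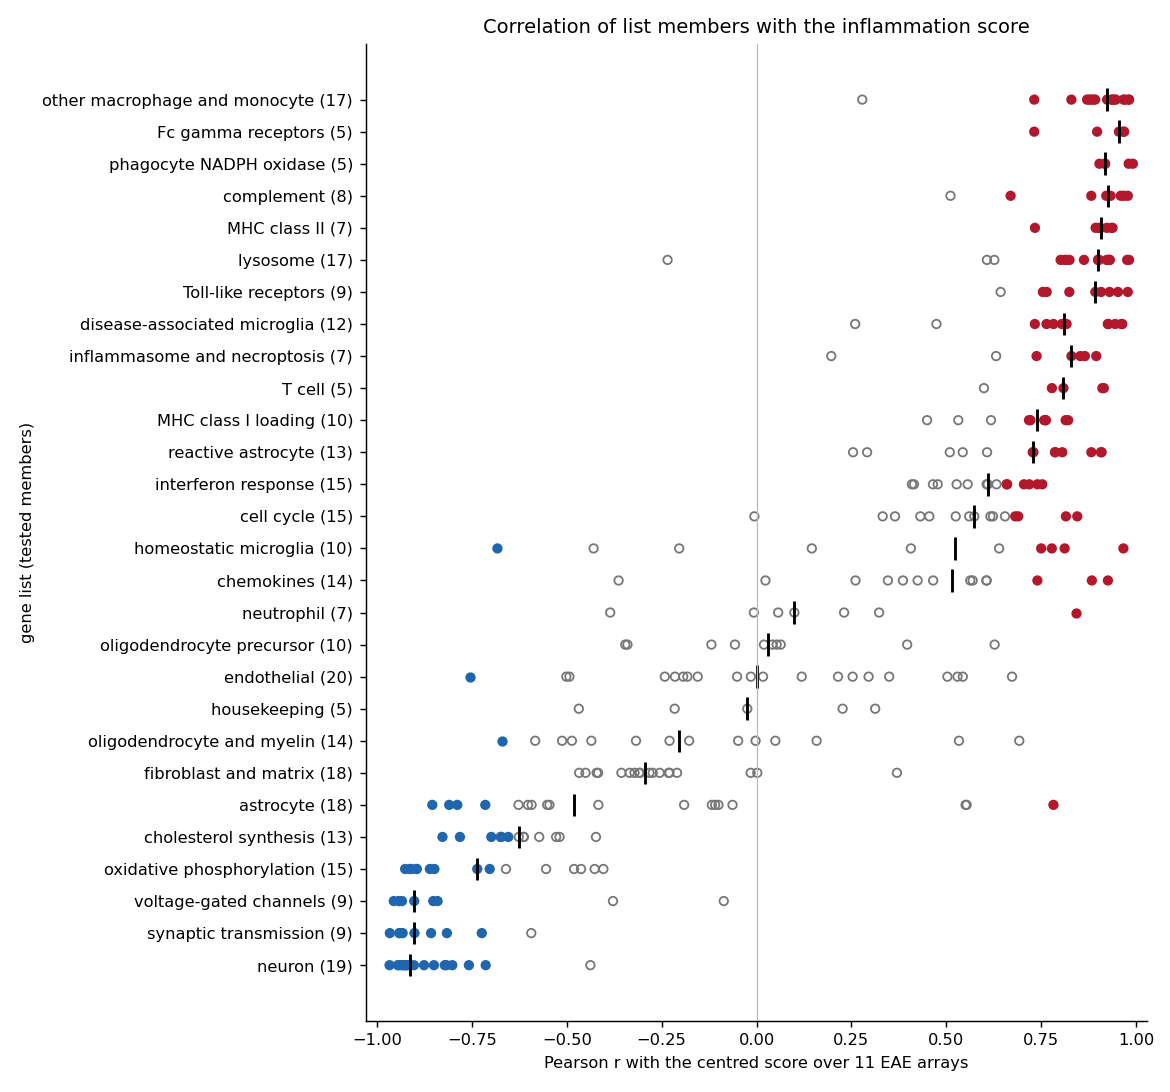
Pearson r with the centred score over 11 EAE arrays for each tested member of 28 gene lists (number tested in brackets); filled points passed an adjusted p under 0.05 (red rose, blue fell), open points did not, and the bar is the list median. Phagocyte lists lie at the right, neuronal lists at the left, and oligodendrocyte precursor, endothelial and housekeeping lists around 0.

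Most tested genes of antigen presentation and of T cells rose with the score too. All 7 MHC class II genes rose (median slope 0.70), with H2-Ab1 at 0.97 and H2-Aa at 0.53. Of 10 genes of class I loading 7 rose, the peptide transporter Tap1 with 0.85, while B2m, already at 12.34 in naïve cord, had 0.15 and did not pass (limma adjusted p = 0.32). Of 5 T cell genes 4 rose. Cd3d, a chain of the T cell receptor complex, stood at 10.33, 9.61, 9.32, 8.76 and 10.31 in the isotype control group and at 9.30 to 10.54 in the anti-RGMa group (median 9.54), against 1.25 to 4.04 in naïve cord (slope 1.23, SE 0.17, limma adjusted p = 0.000376). Its 3 highest signals were those of the upper arrays. Cd3g had 1.07, Cd2 1.05 and the chemokine gene Ccl5, which T cells and macrophages both express, 1.21. Nkg7, of cytotoxic granules, rose with 1.10, and without anti-RGMa replicate 6 had 0.70 and did not pass (limma adjusted p = 0.0522). Without the same array Tap1 did not pass either (0.129). Of 5 B cell and plasma cell genes 2 rose, beside 17.0% of all tested genes, with 1.32 for Cd22, an inhibitory co-receptor of the B cell receptor.

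Of 7 neutrophil genes tested 1 rose, a share close to the 17.0% of all tested genes. It was Csf3r (0.86), a receptor gene that monocytes also express. S100a8, among the most abundant transcripts of neutrophils, stood at 13.99, 12.70, 13.44, 13.00 and 12.62 in isotype control replicates 1 to 5 and at 12.42 to 13.81 (median 13.25) in the anti-RGMa group, with 5.23 to 10.21 in naïve cord. Isotype control replicates 1 and 5, both upper arrays, held the highest and the lowest signal of their group. Its slope was 0.44 (SE 0.38, limma adjusted p = 0.399), that of its partner S100a9 0.39 (SE 0.48, limma adjusted p = 0.563), and r turned to -0.276 and -0.383 without the 2 farthest arrays.

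Microglial genes split. The homeostatic list had 4 risers and 1 faller among 10, beside 17.0% rising and 16.7% falling among all tested genes. Selplg, P2ry13 and Cx3cr1, which monocytes express as well, rose with 0.66, 0.59 and 0.61, the last call being lost without isotype control replicate 1 (limma adjusted p = 0.0555) or with the mean of the probe sets. The more microglia-restricted P2ry12 and Tmem119 had -0.35 (SE 0.23, limma adjusted p = 0.25) and 0.04 (SE 0.11, limma adjusted p = 0.789), and P2ry12 passed at -0.65 without isotype control replicate 1 (0.0389). Siglech, chosen after its values were seen, fell by 0.38 at an adjusted p = 0.049 (limma), a call lost without any of 8 single arrays (adjusted p of 0.0531 to 0.315). Of 12 genes of disease-associated microglia, the state seen around damaged myelin and plaques, 10 rose, with Cst7 at 1.16, Itgax at 1.06, Tyrobp at 0.90 and Trem2 at 1.18. Cst7 also stands in the list of cytotoxic lymphocyte genes. Whether microglia or entering leukocytes carried these transcripts was not tested. Without anti-RGMa replicate 6, Trem2 did not pass (limma adjusted p = 0.101), and among the 8 lower arrays its slope was -0.47.

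Secreted signals were less uniform. Of 14 chemokine genes 3 rose, near the 17.0% of all tested genes, namely Ccl5, Cxcl16 (1.13) and Cxcl9 (0.90). Ccl2, the main ligand of CCR2, had a slope of 1.11 with a wide error (SE 0.47, limma adjusted p = 0.0922), and Cxcl10 0.97 (SE 0.38, adjusted p = 0.0645). Both passed when the score was built from the other macrophage genes (1.42 and 1.19, limma adjusted p = 0.0133 and 0.0105) and without anti-RGMa replicate 4 (0.0341 and 0.0373), and Cxcl10 without isotype control replicate 1 (0.0446). Of 15 interferon response genes 6 rose and all 15 had a slope above 0 (median 0.87). Gbp2 had 0.83 and Irf7, the factor that amplifies the response, 0.89, and without anti-RGMa replicate 6 neither passed (limma adjusted p = 0.0986 and 0.195). Leaving out each of 7 other arrays alone also ended the Irf7 call (0.0526 to 0.0836). Of 15 cell cycle genes 4 rose, beside 17.0% of all tested genes, among them Mcm3 (0.91) and Mcm7 (0.52) of the replicative helicase. Mki67 passed only without anti-RGMa replicate 4 among the arrays left out (0.66, SE 0.32, limma adjusted p = 0.13 with all arrays and 0.0446 without it). The helicase calls too were lost without anti-RGMa replicate 6 (0.0763 and 0.0515). Tgfb1 rose with 0.69 and likewise did not pass without that array (0.0785).

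Genes of neurons and their synapses fell with the score. The 12 lowest correlations were of Zfyve9, Hapln4, Myh10, Clasp1, Cygb, Ssx2ip, Atrn, Dnm1, Armcx4, Ppm1l, Lonrf2 and Dffa, with r of -0.988 to -0.968 (exact permutation p up to 0.00157) and rho of -0.973 to -0.836 (exact p up to 0.00623). Without the 2 farthest arrays r was -0.969 to -0.895. Among the 8 lower arrays it ranged from -0.862 to -0.505. These genes too were picked by r, so their r, rho and exact p describe them and test nothing. Hapln4, a link protein of the perineuronal nets that wrap synapses, had 8.21, 9.45, 9.73, 9.51 and 8.51 in isotype control replicates 1 to 5 and 8.44 to 10.08 in the anti-RGMa group (median 9.88). All were below the naïve range of 10.71 to 10.95, and the 3 upper arrays lay lowest (slope -1.52, SE 0.11, limma adjusted p = 9.8e-06). Dnm1, the dynamin of synaptic vesicle recycling, fell by 1.17 per unit of score, and Myh10 (a non-muscle myosin) and Clasp1 (a microtubule-binding protein), which many cells express, fell by 0.61 and 0.54. The Myh10 call was lost with the mean of its probe sets.

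Of 19 neuron markers tested, 18 fell and 0 rose, with a median slope of -0.82. Nefm, the medium neurofilament chain, stood at 12.83, 13.60, 13.70, 13.55 and 12.57 in the isotype control group and at 12.94 to 14.04 in the anti-RGMa group (median 13.87), against 14.20 to 14.33 in naïve cord (slope -1.02, SE 0.13, limma adjusted p = 0.000226). The upper 3 arrays were again lowest. Eno2 (neuronal enolase) fell by 1.14, Snap25, of the vesicle fusion machinery, by 0.80 and Nefl by 0.68. Tubb3, chosen after its values were seen, was the one not to pass (-0.20, SE 0.14, limma adjusted p = 0.282).

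Genes of synaptic transmission fell steeply. Of 9 synaptic transmission genes 8 fell (median slope -1.09). Slc6a5, the glycine transporter of inhibitory spinal neurons, had 9.47, 11.21, 11.33, 10.96 and 9.92 in isotype control replicates 1 to 5 and 9.73 to 11.63 in the anti-RGMa group (median 11.33), with 12.01 to 12.21 in naïve cord. Its slope was -1.76 (SE 0.15, limma adjusted p = 2.65e-05), a 3.38-fold lower signal per unit of score. The glycine receptor gene Glra1 and the glutamate transporter gene Slc17a6 of excitatory neurons each fell by 1.16, the GABA-synthesizing enzyme Gad1 by 0.89 and the AMPA receptor gene Gria2 by 0.51. The Gria2 call ended without anti-RGMa replicate 6 (limma adjusted p = 0.291), isotype control replicate 1 (0.102) or isotype control replicate 3 (0.0563), or when its probe sets were averaged. Of 9 voltage-gated channel genes 7 fell, among them Scn1a (-1.20), Kcna2 (-1.08) and Kcna1 (-0.64). Pvalb, a calcium buffer of fast-firing interneurons and of muscle, fell by 1.29.

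On every EAE array the mean of the neuron list lay below that of every naïve cord. It was 11.41, 12.10, 12.11, 11.88 and 11.43 in isotype control replicates 1 to 5. In the anti-RGMa group it was 11.58 in replicate 6 and 12.20 to 12.50 in the others, and in naïve cord 12.80 to 12.88. Within the 8 lower arrays the median slope was -0.12 for the neuron list, -0.37 for synaptic transmission and -0.26 for voltage-gated channels, against 1.23 for the other macrophage genes there and 0.13 for all tested genes. Over all 11 arrays the medians of the neuron list, the other macrophage genes and all tested genes were -0.82, 0.94 and 0.00. In the 8 arrays Hapln4 had a slope of -0.71, Eno2 -0.42 and Nefl 0.08, none with a call.

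**Figure D4:**
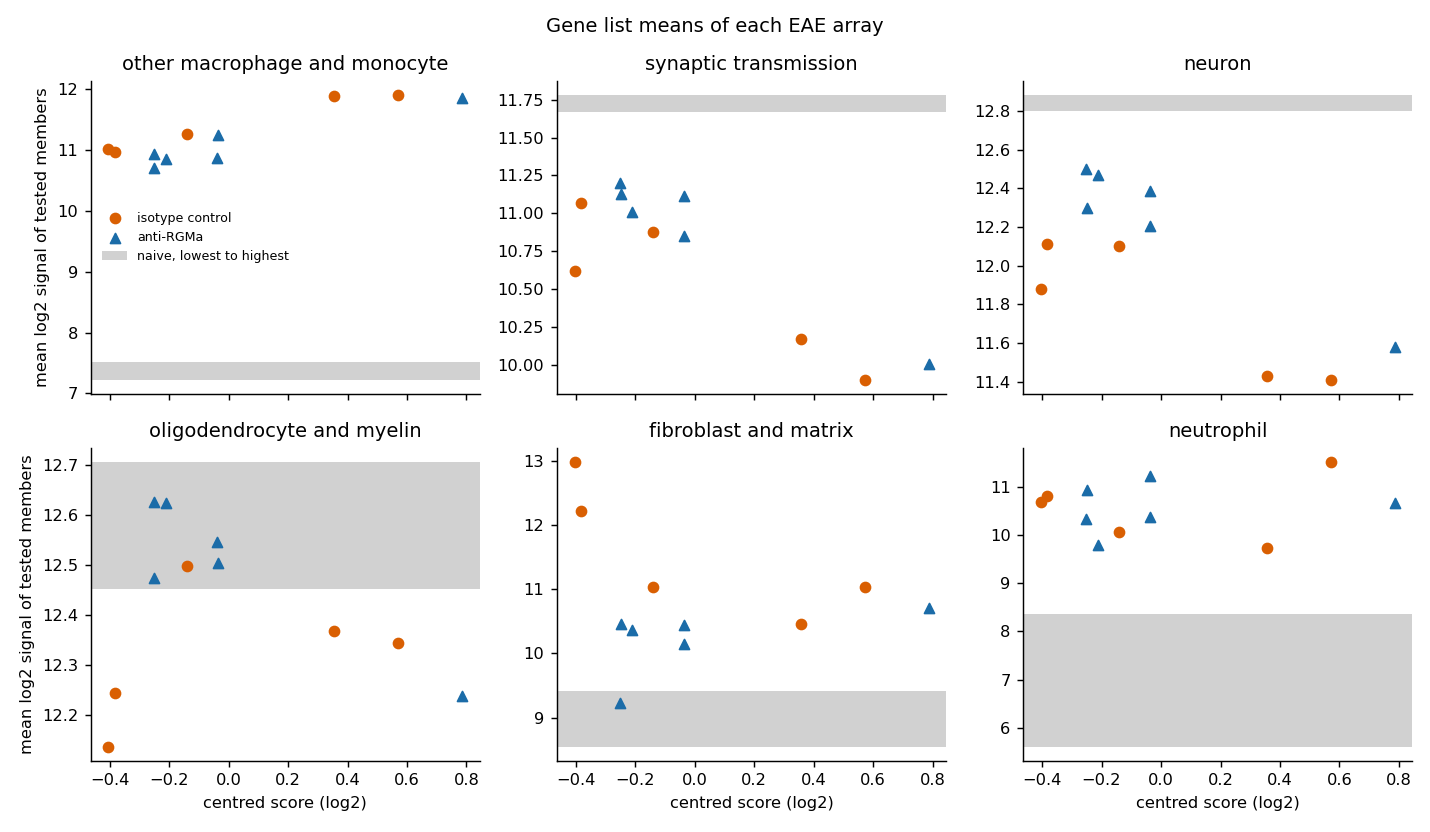
Mean log2 signal of the tested members of 6 gene lists on each EAE array against the centred score, isotype control as circles and anti-RGMa as triangles, with the naïve range shaded; vertical scales differ and do not start at 0. The neuron mean lies at 11.41 to 11.58 on the 3 upper arrays and 11.88 to 12.50 on the others, and the neutrophil and matrix means show no common direction.

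Of 14 oligodendrocyte and myelin genes 0 rose and 1 fell (median slope -0.09), shares below the 17.0% and 16.7% of all tested genes. Within the anti-RGMa arrays alone, whose slopes rest mostly on replicate 6, 4 of them fell, at a median slope of -0.31. Within the isotype control arrays alone 0 fell, at 0.15. No gene differed in slope between the groups at an adjusted p under 0.05. Mbp, myelin basic protein, stood at 15.13, 15.03, 14.94, 14.97 and 15.07 in isotype control replicates 1 to 5 and 15.07 to 15.40 in the anti-RGMa group (median 15.27), beside 15.21 to 15.36 in naïve cord, with a slope of 0.01 (SE 0.10, limma adjusted p = 0.934). These are among the brightest signals of the arrays. Mog had -0.15 (SE 0.15, limma adjusted p = 0.456), and passed at -0.31 without isotype control replicate 4, the array richest in muscle genes (0.0435). Mal, a proteolipid of compact myelin, fell by 0.42 at an adjusted p of 0.0487 (limma), but had -0.04 without anti-RGMa replicate 6 (adjusted p = 0.894), and leaving out isotype control replicate 2 or 3 or any of anti-RGMa replicates 1 to 5 also ended the call (0.059 to 0.0787). None of 10 oligodendrocyte precursor genes passed, at a median slope of 0.02.

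Reactive astrocyte genes rose in most cases, and most genes of astrocyte identity and transport made no call. Of 13 reactive astrocyte genes 8 rose and 0 fell. Lcn2, a secreted iron-siderophore carrier, stood at 14.52, 14.27, 13.73, 13.78 and 14.47 in the isotype control group and 13.75 to 14.62 in the anti-RGMa group (median 14.14), where naïve cord had 4.95 to 6.89 (slope 0.71, SE 0.12, limma adjusted p = 0.000896). The Lcn2 call was lost without the 2 farthest arrays (limma adjusted p = 0.0511). Serpina3n rose with 0.62 and Cd44, a hyaluronan receptor that leukocytes also carry, with 0.83, a call that the mean of its probe sets did not keep. Gfap itself, at 12.82 in naïve cord, had 0.25 (SE 0.14, limma adjusted p = 0.188). Of 18 genes of astrocyte identity and transport 4 fell and 1 rose, beside 16.7% falling and 17.0% rising among all tested genes. Ntsr2, a receptor, fell by 0.86 and the gap junction gene Gjb6 by 0.63, whereas the glutamate transporter gene Slc1a3 rose with 0.63 and the water channel Aqp4 had -0.04 (limma adjusted p = 0.823). Without anti-RGMa replicate 6 the 3 calls were lost (adjusted p = 0.0825 for Ntsr2, whose slope was then -0.57, 0.15 for Gjb6 and 0.102 for Slc1a3).

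Of 5 endothelial activation genes tested 2 rose, the adhesion molecules Icam1 and Vcam1, and the other 3 did not pass. Icam1, the ligand of leukocyte integrins, stood at 11.50, 10.87, 10.81, 10.81 and 11.57 in isotype control replicates 1 to 5 and 10.10 to 11.37 in the anti-RGMa group (median 10.57), against 6.26 to 7.19 in naïve cord (slope 0.90, SE 0.15, limma adjusted p = 0.000934). Within each group the upper arrays had the highest signals. The Icam1 call was lost without the 2 farthest arrays (limma adjusted p = 0.064). Vcam1, the ligand of the integrin VLA-4, rose with 0.91 (SE 0.16, limma adjusted p = 0.00133), and both are also found on other cells of inflamed cord. Of 20 endothelial markers 0 rose and 1 fell, shares below the 17.0% and 16.7% of all tested genes. The 1 that fell was Itm2a (-1.02, SE 0.27, limma adjusted p = 0.0117). The tight junction gene Cldn5 had 0.32 (SE 0.16, limma adjusted p = 0.152) and von Willebrand factor (Vwf) 0.68 (SE 0.31, limma adjusted p = 0.113). None of 6 mural cell genes passed, with Pdgfrb at -0.15 (SE 0.21, limma adjusted p = 0.629). Of 5 smooth muscle genes 1 rose and 1 fell, near the 17.0% and 16.7% of all tested genes, at a median slope of -0.70. The regulatory myosin light chain gene Myl9 fell by 0.70 (SE 0.18, limma adjusted p = 0.0115), a call lost without anti-RGMa replicate 6 (0.203). The contractile kinase gene Mylk rose with 0.48, except without anti-RGMa replicate 6 (limma adjusted p = 0.0836) or with the mean of its probe sets.

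Matrix genes varied widely between mice. Of 18 fibroblast and matrix genes 0 passed over the 11 arrays. Within the isotype control arrays alone 5 fell, at a median slope of -1.77, and within the anti-RGMa arrays alone 0 passed, at 0.62. Postn, the matrix protein periostin, stood at 9.14, 9.64, 12.65, 14.22 and 9.49 in isotype control replicates 1 to 5, against 7.77 to 9.42 (median 8.53) in the anti-RGMa group and 5.90 to 6.69 in naïve cord. The high signals were those of isotype control replicates 3 and 4, whose skeletal muscle means were 8.95 and 12.75. Isotype control replicate 5, with a muscle mean of 9.00, had Postn at 9.49. The part of adjoining tissue in these signals was not tested. Postn had a slope of -1.59 (SE 0.99, limma adjusted p = 0.239) over the 11 arrays and of -3.94 (adjusted p = 0.0243) without anti-RGMa replicate 6. Col6a2, a chain of collagen VI, had -1.22 (SE 0.67, limma adjusted p = 0.183) and passed without anti-RGMa replicate 2 (-1.59, adjusted p = 0.0326) or 6 (-2.57, adjusted p = 0.0456). Col1a1, of collagen I, had -0.55 (SE 0.60, limma adjusted p = 0.514), and passed at -2.0 without replicate 6 (adjusted p = 0.0418). For none of the matrix genes did the slopes of the treatment groups differ at an adjusted p under 0.05.

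**Figure D5:**
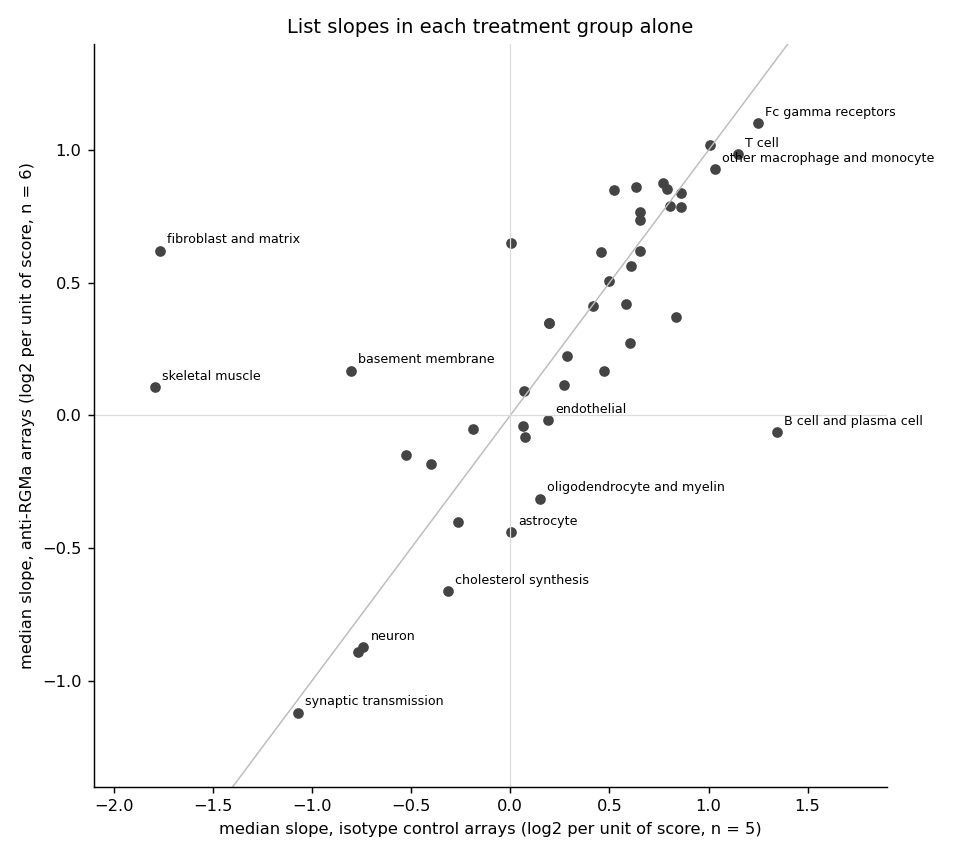
Median slope on the score of each gene list with at least 4 tested members, in the isotype control arrays alone (horizontal, n = 5) and in the anti-RGMa arrays alone (vertical, n = 6), in log2 signal per unit of score, with the line of equal slopes. Neuron genes (-0.74 and -0.87) lie near the line, while fibroblast and matrix (-1.77 and 0.62), skeletal muscle (-1.79 and 0.11), basement membrane (-0.80 and 0.17) and B cell genes (1.34 and -0.06) lie off it. The anti-RGMa slopes rest mostly on replicate 6.

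Genes of mitochondrial respiration fell. Of 15 oxidative phosphorylation genes 9 fell and 0 rose (median slope -0.33), with Ndufa4 at -0.69 (SE 0.11, limma adjusted p = 0.000889) and Ndufs1, a complex I subunit, at -0.59 (SE 0.10, limma adjusted p = 0.000905). Of 9 glycolysis and hypoxia genes 3 rose, 0 fell and 6 did not pass (median slope 0.25), where 17.0% of all tested genes rose. The glycolytic enzyme gene Hk2 rose with 0.96, the lactate dehydrogenase gene Ldha with 0.50, though not without anti-RGMa replicate 6 (limma adjusted p = 0.0528), and Hif1a, the oxygen-regulated factor, with 0.57, the latter not with the mean of its probe sets. Of 13 cholesterol synthesis genes 6 fell and 0 rose. Nsdhl, of the late pathway, fell by 0.46, and without anti-RGMa replicate 6 did not pass (limma adjusted p = 0.185). Of 10 genes of the unfolded protein and stress response 5 rose and 1 fell (median slope 0.22), the latter the asparagine synthetase gene Asns (-0.67). None of 5 housekeeping genes passed, at a median slope of 0.00.

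The gene of the antibody's target made no call. Rgma, a guidance molecule that binds the receptor neogenin and acts as a BMP co-receptor, had a slope of 0.08 (SE 0.23, limma adjusted p = 0.818), and its receptor gene Neo1 -0.08 (SE 0.10, limma adjusted p = 0.54). Of 14 RGMa and BMP signalling genes 1 rose and 2 fell, shares below the 17.0% and 16.7% of all tested genes. The BMP target gene Id2, which leukocytes express too, rose with 0.67, and the relative Rgmb fell by 0.49. Bmpr2, a BMP receptor, fell by 0.25. Without anti-RGMa replicate 6 the calls of Id2 (limma adjusted p = 0.132) and Bmpr2 (0.33) were lost. That of Bmpr2 was also lost when isotype control replicate 1 (0.109) or 3 (0.0727) was left out, and for anti-RGMa replicates 1 (0.0562) and 2 (0.0585), and neither the Bmpr2 nor the Rgmb call held with the mean of the probe sets.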

How the data were processed

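Total RNA was hybridised to Affymetrix mouse arrays of 45101 probe sets, 1 per mouse. The authors computed signal intensity with Microarray Suite 5.0 (MAS5; the submitters' processing notes also name affy) and scaled each array, so the deposited intensity values share 1 trimmed mean. The number of arrays limits the precision, and bright signals such as Lyz2 may be compressed. The platform annotation gave 34958 probe sets 1 gene, of which 34754 were matched to GRCm38.p6, and left 932 with several and 9211 with none, which were dropped. Each of 18194 genes was represented by its brightest probe set on average, on the log2 scale with no offset. Slopes on the centred score, with a mean per treatment group, were fitted with limma 3.58.1 in R 4.3.3 (Benjamini-Hochberg over 10095 genes). Single correlations used all 86400 orderings within groups. Mice were separate animals. Members and gene lists were chosen with earlier results of these data known, so counts within a list are descriptions. Genes named are the 5 score genes, the 12 highest and lowest r, and per list the first 2 and the 3 with the smallest p. Others are marked as chosen after their values were seen. On simulated data over the 10095 genes, 41 of 100 genes with a slope of 0.5, 89 of 100 with a slope of 1 and 8 of 9895 unchanged genes passed. The simulated noise was independent between genes and few genes had a slope, whereas the real signals move together. These shares therefore do not give the rate of false calls here. Alternatives varied filter, scaling, offset, probe set, score, covariates, weights and arrays. Deviations of same-numbered arrays of the antibody groups correlated at -0.42 to 0.48, and at -0.09 to 0.36 once the score slope was taken out. Differently numbered arrays were not compared, so a pairing by number was not tested. Figures were drawn with matplotlib 3.10.9.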

Additional observations from a re-analysis of the deposited data

Results flagged for a closer look

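Samples standing apart from their group were sought with Dixon's test in the score, the array measures and the genes shown by array, 60 groups in all, of which chance flags about 1 in 20. Of 11 such values, 7 belonged to anti-RGMa replicate 6. It stood apart from the other anti-RGMa mice in the score (12.18), in Cyba (13.63), Cd84 (11.68) and Wfdc17 (12.21), all higher, and in Hapln4 (8.44), Slc6a5 (9.73) and Nefm (12.94), all lower. These genes share arrays and move together, so they are not separate findings.

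The other 4 were in naïve mice, outside the gradient. Naïve replicate 5 had the lowest score (6.05), through dim signals of Ccr2 (1.29) and Ms4a7 (4.05), and the highest mean of dorsal root ganglion genes (6.79). Naïve replicate 6 had the highest log2 ratio of 3' to 5' control probe sets for Gapdh (-0.31) and for actin (0.87).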

How the results depend on the processing

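Of 112 named genes that passed, 24 lost the call without anti-RGMa replicate 6 and all lost it without the 3 arrays of highest score (105 with the slope on the same side). Without the 2 farthest arrays 57 lost it with the slope on the same side and 1 turned sign, and 66 lost it with a replicate block. The 1717 rising and 1688 falling genes became 202 and 107 without the 2 arrays farthest from the median score, 0 and 0 without the 3 highest (added after seeing the data), 384 and 221 in the isotype control arrays alone, and 911 rising in the anti-RGMa arrays alone. At a mean of at least 10 they were 933 and 869 of 4487 genes, fewer being tested. Leaving out each array in turn gave 726 to 1711 rising and 660 to 1953 falling genes. With a replicate block 203 rose and 182 fell. Replicate 6 exists only in the anti-RGMa group, so this block takes that array out of the slope, besides fitting a term for each replicate number. Whether the numbers pair the arrays was not tested. The cause of these losses was not tested, beyond fewer arrays and a shorter range of the score. Other settings kept both counts within 1.5 times. Without the 3 highest arrays the slopes of Adgre1 (-0.0805), Trem2 (-0.472), Nkg7 (-0.0248), Nefl (0.0784), Mal (0.172), Bmpr2 (0.0933) and Siglech (0.315) turned sign, none with a call, as did Mal (0.0243) without the 2 farthest.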
